A study of Mus musculus with 7 samples.

Results

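The miR-378 family in mouse colorectum was taken as every entry of a deposited microRNA count table whose name begins with miR-378, in all letters and arms. It held 5 of the 1915 entries: mmu-miR-378a-3p, mmu-miR-378a-5p, mmu-miR-378b, mmu-miR-378c and mmu-miR-378d, written without the species prefix from here on. MicroRNAs (miRNAs) are short RNAs that pair through their seed, bases 2 to 8, with messenger RNAs and repress them. miR-378a is made from an intron of Ppargc1b, the gene of PGC-1β, a coactivator that drives mitochondrial gene expression and oxidative metabolism, and it is known to be induced together with that gene. In mice miR-378a-3p represses Crat, an enzyme of mitochondrial fuel use, and Med13, a subunit of the Mediator complex, and it is abundant in muscle and fat. Its partner miR-378a-5p was shown in human cells to repress regulators of oxidative metabolism. Roles of miR-378b, miR-378c and miR-378d are less well known.

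Small RNA was sequenced from the colorectum of 6 wild-type female C57BL/6 mice. The 3 CRC mice, M4, M5 and M6, were injected at 7 weeks of age with the carcinogen azoxymethane (AOM, 10 mg per kg). After 5 days their water contained 2.5% dextran sodium sulfate (DSS), an agent that damages the gut lining; this lasted 7 days, and plain water was then given over 14 days. The labels also say that this cycle was repeated. Their label gives stage T1 at day 17, and the labels do not settle from which event that day was counted. The 3 healthy mice, M1, M2 and M3, were injected with 0.9% saline, and the labels do not say what they drank. No group received AOM or DSS alone, so the carcinogen, the injury and tumours cannot be told apart. The labels do not say which part of the colorectum, or whether tumour or surrounding wall, was taken.

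Total miRNA reads were between 3206127 and 6601899 in CRC mice and between 8222508 and 15280434 in healthy mice. The table has 1 column for mouse M1, for which the labels list 2 libraries, M1a and M1b, and it was used as 1 replicate. Over the miRNAs at a mean of 50 CPM or more, log2 levels correlated at 0.984 between M5 and M6 and at 0.992 between M1 and M2. The healthy mouse M3 lay closest to the CRC mouse M4, at 0.966, and reached at most 0.901 with another healthy mouse. Fold changes of the members and of their sum, and the medians printed for lists of other miRNAs, are therefore given with and without these 2 mice. Levels are CPM, read counts relative to library size, scaled by TMM, which sets most miRNAs level between libraries, unless total reads are named.

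The sequences show how little separates the family, and why its reads are hard to assign. miR-378b, miR-378c and miR-378d are printed 5′ to 3′ with the seed in capitals; RefSeq on GRCm38.p6 gives the same letters as the count table. They lie at chr11:88352839-88352858 on the plus strand, chr14:46954905-46954925 on the minus strand and chr10:126710355-126710376 on the minus strand.
miR-378b: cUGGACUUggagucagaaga
miR-378c: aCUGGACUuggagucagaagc
miR-378d: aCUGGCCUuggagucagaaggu
miR-378b and miR-378c share a run of 19 bases, cuggacuuggagucagaag, but miR-378b begins 1 base later. Its seed, UGGACUU, is therefore shifted by 1 base against CUGGACU of miR-378c. With positions counted from the 5′ end of miR-378c, miR-378d differs from it by A6C, which lies inside the seed, and by C21G. The seed of miR-378d, CUGGCCU, occurs in no other entry of the table, and neither does that of miR-378b.

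The hairpins show that the family members do not occupy the same arm. The mature sequence is in capitals.
Mir378b: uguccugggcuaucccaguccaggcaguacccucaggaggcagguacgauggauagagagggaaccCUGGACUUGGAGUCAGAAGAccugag
Mir378c: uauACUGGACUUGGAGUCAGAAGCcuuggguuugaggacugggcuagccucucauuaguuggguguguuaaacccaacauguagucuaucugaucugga
Mir378d: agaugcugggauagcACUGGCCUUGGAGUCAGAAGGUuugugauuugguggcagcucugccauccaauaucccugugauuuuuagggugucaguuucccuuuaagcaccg
In Mir378b the mature sequence takes bases 67 to 86 of 92, on the 3′ side. In Mir378c it takes bases 4 to 24 of 99, and in Mir378d bases 16 to 37 of 110, both on the 5′ side. The table has no entry for the opposite arms of these 3 hairpins, so arm balance could be measured for miR-378a alone. In the GENCODE M21 annotation of GRCm38, Mir378b (chromosome 11, 88352773 to 88352864) lies in an intron of Msi2 on the opposite strand. Mir378c (chromosome 14, 46954830 to 46954928) lies in an intron of Samd4, also on the opposite strand. Mir378d (chromosome 10, 126710282 to 126710391) overlaps no other gene, and the nearest protein-coding gene is Atp23.

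Mir378a lies on chromosome 18 from 61397835 to 61397900 on the minus strand, in an intron of Ppargc1b on the same strand. A second annotated miRNA gene, Gm25301, overlaps it on the other strand. The seed of miR-378a-3p is that of miR-378c, and no entry outside the family has it. In the best ungapped alignment miR-378a-3p has 1 mismatch with each of miR-378b, miR-378c and miR-378d. The sources do not say how reads that match several entries, or either strand, were treated. The split among these 4 entries is therefore uncertain, and their sum is given as well. miR-378a-5p has its own sequence, with at most 9 matching bases against any of the other 4 entries. Of the 1910 entries outside the family, 0 share a run of 12 or more bases with a member on either strand.

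Within the family, miR-378a-3p was by far the most abundant entry and ranked 36 among all 1915 entries by its mean over the 6 mice, 4893 CPM. miR-378c followed at 655 CPM (rank 104), then miR-378d at 119 CPM (rank 200), miR-378a-5p at 91.2 CPM (rank 221) and miR-378b at 71.3 CPM (rank 242). The entries are 20 to 22 bases long, so a read stands for nearly the same length in each. miR-378a-3p exceeded miR-378c in 6 of 6 mice, by 5.92 to 9.91 times, and miR-378c exceeded miR-378d in 6 of 6 mice, by 3.05 to 8.88 times. The lower 3 were not separated in the same way: miR-378d exceeded miR-378a-5p in 5 of 6 mice, and miR-378a-5p exceeded miR-378b in 4 of 6. In mean level miR-378a-3p stood between miR-27a-3p (5093 CPM) and miR-125b-5p (4809 CPM), and both neighbours overlapped it across mice.

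The 5 entries together made up 0.538% of the reads in M4, 0.420% in M5 and 0.572% in M6 among CRC mice, against 0.652% in M1, 0.490% in M2 and 0.576% in M3 among healthy mice. Exact 95% binomial intervals, which cover counting error only, were narrow, for example 0.414% to 0.427% in M5 and 0.648% to 0.657% in M1. The lowest value was in a CRC mouse and the highest in a healthy mouse, and the groups overlapped. The spread between mice was therefore far wider than counting error.

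On the TMM scale the abundant members had lower mean levels in CRC than in healthy colorectum, but 0 of the 5 members were called by edgeR (quasi-likelihood test, adjusted p under 0.05), against 2.28% of the 878 miRNAs tested. All 20 of those calls were higher in CRC and 0 were lower, where 85 were lower at an unadjusted p under 0.05, DESeq2 called 35 lower and limma-voom 0. Without adjustment, 0 of the 5 members had a p under 0.05, against 23.2% of all tested miRNAs in either direction and 9.68% lower in CRC. The other tools called 0 members as well, DESeq2 with 12.6% of all tested miRNAs called and limma-voom with 0. All 5 log2 fold changes were negative with TMM, as were 51.5% over all tested miRNAs. With total reads 4 of 5 were negative, in a fit whose median over all tested miRNAs was 0.62. The entries share bases and scaling factors, so they are not 5 separate measurements.

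miR-378a-3p, the guide strand of Mir378a, had 4858 (M4), 2186 (M5) and 3205 CPM (M6) in CRC mice, against 7700 (M1), 7122 (M2) and 4284 CPM (M3) in healthy mice. M1 and M2 were high, M5 and M6 low, and the CRC mouse M4 lay above the healthy mouse M3, so the groups overlapped. Its mean was 3416 ± 1348 CPM in CRC mice and 6369 ± 1828 CPM in healthy mice (SD, n = 3 each). The log2 fold change was -0.90 (SE 0.42, adjusted p = 0.232, edgeR). In these bulk samples fewer cells that express a miRNA and less of it per cell cannot be told apart.

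**Figure D1:**
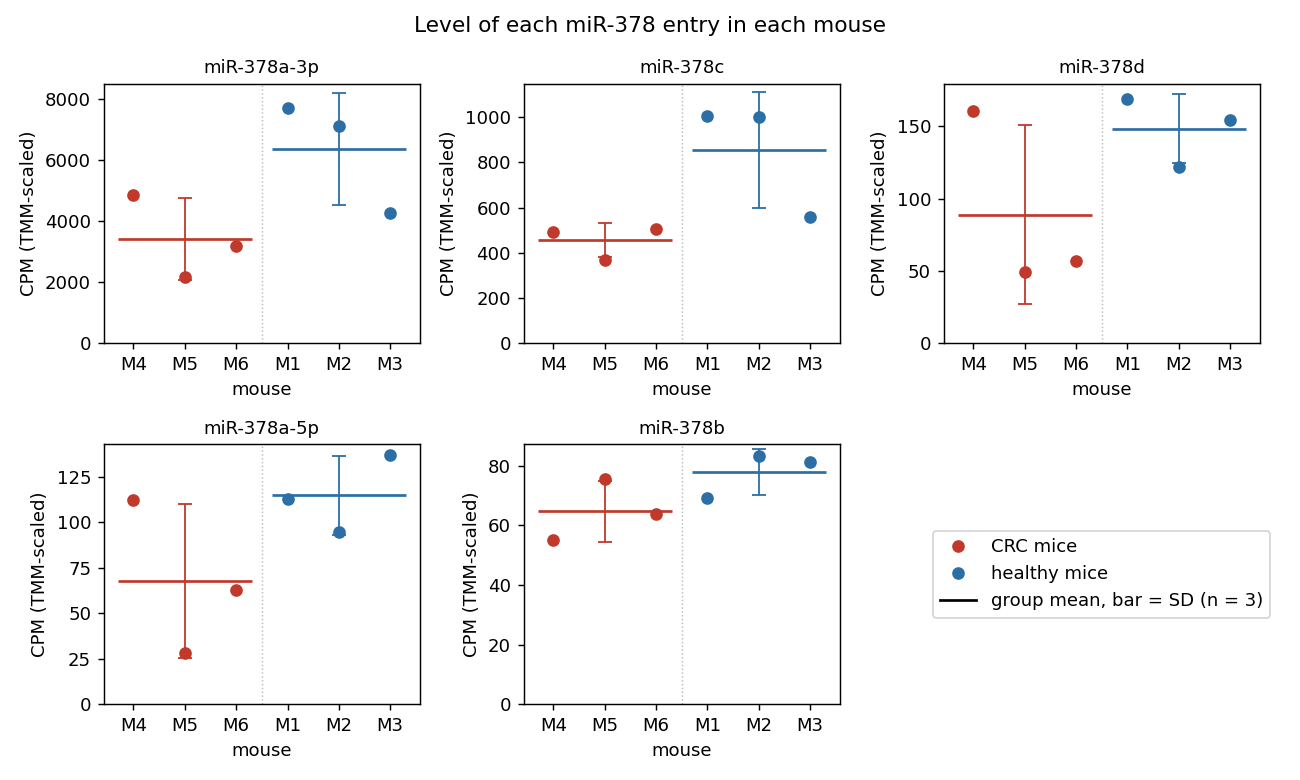
TMM-scaled CPM (vertical axis, from 0, on a separate scale for each entry) of the 5 miR-378 entries in each mouse, with CRC mice in red and healthy mice in blue; lines are group means and bars SD (n = 3). For miR-378a-3p and miR-378c the healthy mice M1 and M2 stand above the others, for miR-378d and miR-378a-5p the CRC mice M5 and M6 stand below the others, and miR-378b is between 54.9 and 83.2 CPM in all mice.

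miR-378c, which has the seed of miR-378a-3p, had 490 (M4), 369 (M5) and 506 CPM (M6) in CRC mice, against 1003 (M1), 999.7 (M2) and 559 CPM (M3) in healthy mice. It was the 1 member of 5 with every CRC mouse below every healthy mouse, as were 12.4% of all tested miRNAs, and the groups overlapped when scaled by total reads. The gap between M6 and M3 was small beside the distance from M3 to M1. Means were 455 ± 74.6 CPM in CRC mice and 854 ± 256 CPM in healthy mice (SD, n = 3 each). The fold change on the log2 scale was -0.91 (SE 0.41, edgeR adjusted p = 0.220).

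miR-378d, whose seed carries the A6C difference, had 161 (M4), 49.7 (M5) and 56.9 CPM (M6) in CRC mice, against 169 (M1), 122 (M2) and 154 CPM (M3) in healthy mice. M4 was at the level of the healthy mice and above M2 and M3, while M5 and M6 were below all of them. Means were 89.2 ± 62.2 CPM in CRC mice and 148 ± 24.0 CPM in healthy mice (SD, n = 3 each). The log2 fold change was -0.73 (SE 0.52, adjusted p = 0.421, edgeR). It was -0.42 without M5 (adjusted p = 0.783) and -0.49 without M6 (adjusted p = 0.764). Without M4 it was -1.38 (adjusted p = 0.0403, edgeR), a call in a fit that passed 19.9% of its 1188 miRNAs in either direction and 5.64% lower in CRC. The CRC level in that fit rests on few reads, 275 in M5 and 268 in M6.

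miR-378a-5p, the passenger strand of Mir378a, had 112 (M4), 28.0 (M5) and 62.6 CPM (M6) in CRC mice, against 113 (M1), 94.4 (M2) and 137 CPM (M3) in healthy mice. M3 was the highest mouse here, where for miR-378a-3p it was the lowest healthy mouse. The log2 fold change was -0.76 (SE 0.53, adjusted p = 0.407, edgeR), and the range over the 6 mice, 4.90-fold, was the widest of the 5 members. It was -1.25 without M4 and -0.37 without M5. It rests on few reads, with 155 in M5 and 295 in M6.

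miR-378b varied least, by 1.52-fold over the 6 mice. It had 54.9 (M4), 75.4 (M5) and 63.7 CPM (M6) in CRC mice, against 69.0 (M1), 83.2 (M2) and 81.3 CPM (M3) in healthy mice. The order of mice differed from that of miR-378a-3p, with M5 now the highest CRC mouse. Its log2 fold change was -0.27 (SE 0.39, adjusted p = 0.710, edgeR), and it was positive, 0.48, when libraries were scaled by total reads alone. It was -0.08 without M4 and -0.10 without M2. The CRC mice had few reads of it, with 344 in M4, 417 in M5 and 300 in M6.

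Summing miR-378a-3p, miR-378b, miR-378c and miR-378d gives a level that does not depend on how reads were split among them. This holds only if each read was counted at 1 entry and none was dropped, which the sources do not say. The sum had 5564 (M4), 2675 (M5) and 3833 CPM (M6) in CRC mice, against 8951 (M1), 8324 (M2) and 5083 CPM (M3) in healthy mice. The groups overlapped, with M4 above M3. The log2 fold change was -0.89 (SE 0.41, adjusted p = 0.224, edgeR).

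The size of the difference depended on the scaling. By total reads alone, miR-378a-3p had 4606 (M4), 3392 (M5) and 4709 CPM (M6) in CRC mice, against 5545 (M1), 4143 (M2) and 4731 CPM (M3) in healthy mice. On that scale only M5 and M1 stood apart from the 4 other mice, and the log2 fold change was -0.18 (SE 0.30, adjusted p = 0.750, edgeR). For the summed entries it was -0.16. TMM factors were between 0.948 and 1.55 in CRC mice and between 0.582 and 1.10 in healthy mice, and scaling by totals raised the log2 fold changes of all tested miRNAs by a median of 0.71. Against the median of all tested miRNAs, -0.03 with TMM and 0.62 with totals, the value of miR-378a-3p was lower on both scales.

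**Figure D2:**
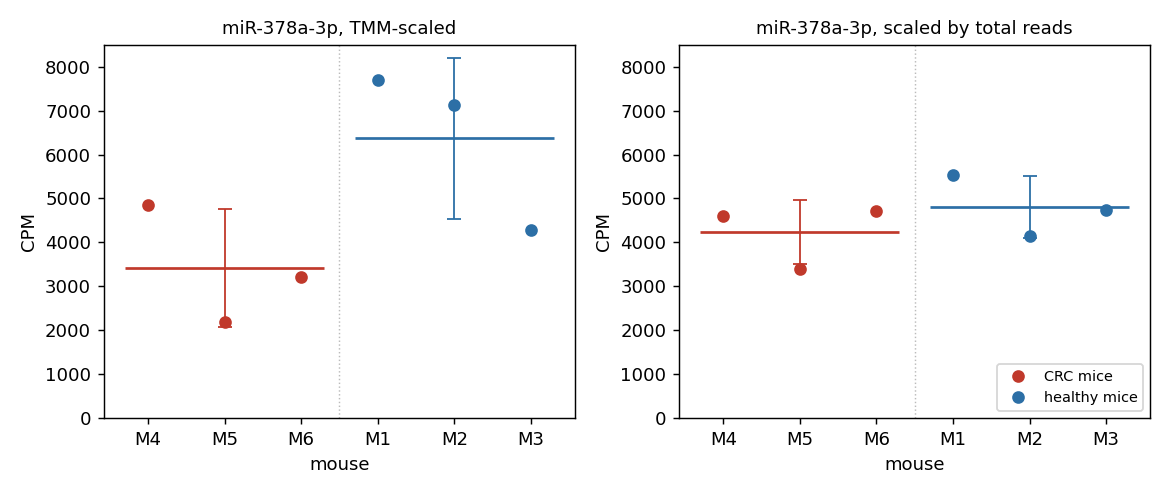
CPM of miR-378a-3p (vertical axis, from 0, the same in both panels) in each mouse with TMM scaling on the left and scaling by total reads on the right; CRC mice are red, healthy mice blue, lines group means and bars SD (n = 3). The TMM-scaled values span 2186 to 7700 CPM, and those scaled by total reads 3392 to 5545 CPM.

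The difference was wider between M5 and M6 on the one side and M1 and M2 on the other. Without both M3 and M4, the log2 fold changes of 2 CRC over 2 healthy mice were -1.72 for miR-378a-3p (SE 0.26), -1.46 for miR-378c (SE 0.26), -1.72 for miR-378d (SE 0.28), -1.45 for miR-378a-5p (SE 0.34) and -0.42 for miR-378b (SE 0.27). M3 and M4 were left out for their measured profiles, which lie between those of the other mice, so the remaining mice are the far ends and these values are a description. edgeR called 4 of the 5 members lower in that fit, in which 53.2% of 1082 tested miRNAs were called in either direction and 27.4% were called lower; no support is drawn from those calls. Between the neighbouring mice, M4 minus M3 gave 0.18 log2 units for miR-378a-3p, -0.19 for miR-378c, 0.06 for miR-378d, -0.29 for miR-378a-5p and -0.56 for miR-378b. These values rest on 1 mouse against 1. A fit with the mice blocked by closest profile (M1 beside M2, M3 beside M4, M5 beside M6) gives the same values, since its only block with both groups is that of M3 and M4.

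**Figure D3:**
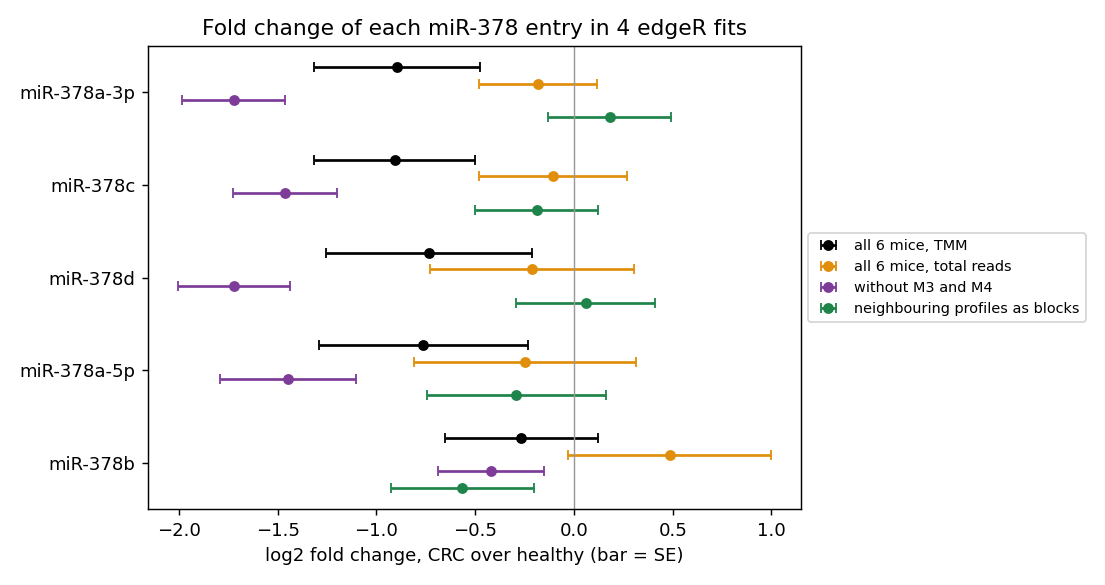
Log2 fold change of CRC over healthy mice (horizontal axis, bars SE) for the 5 miR-378 entries in 4 edgeR fits: all 6 mice with TMM scaling (black), all 6 with total reads (orange), without M3 and M4 (purple), and with neighbouring profiles as blocks (green), which reduces to M4 against M3. For miR-378a-3p the value runs from -1.72 without M3 and M4 to 0.18 with blocks, and miR-378b stays between -0.56 and 0.48.

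Ratios within a library do not depend on scaling and show whether the members keep proportion. For every 100 reads of miR-378a-3p, miR-378c had 10.1 reads in M4, 16.9 in M5 and 15.8 in M6 among CRC mice, against 13.0 in M1, 14.0 in M2 and 13.0 in M3 among healthy mice. The healthy mice lay close together, while M4 was below and M5 and M6 were above all of them. The mean log2 ratio differed by 0.058 between CRC and healthy mice (two-sided exact permutation p = 0.9, adjusted 1 over 6 ratios, where 3 mice against 3 can give no p below 0.1).

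miR-378d had 3.31 reads per 100 of miR-378a-3p in M4, 2.27 in M5 and 1.78 in M6 among CRC mice, against 2.19 in M1, 1.71 in M2 and 3.60 in M3 among healthy mice. The neighbouring mice M3 and M4 had the highest values. miR-378a-5p, the arm ratio of Mir378a, had 2.31 reads per 100 in M4, 1.28 in M5 and 1.95 in M6 among CRC mice, against 1.46 in M1, 1.33 in M2 and 3.20 in M3 among healthy mice. Here too M3 and M4 had the highest values, but the order of the other mice differed. The lowest was M2 for miR-378d and M5 for the passenger strand. The log2 difference of the arm ratio between CRC and healthy mice was -0.034 (two-sided exact permutation p = 0.9, adjusted 1).

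miR-378b had 1.13 reads per 100 of miR-378a-3p in M4, 3.45 in M5 and 1.99 in M6 among CRC mice, against 0.896 in M1, 1.17 in M2 and 1.90 in M3 among healthy mice. The groups overlapped, and M5 stood above all other mice. Its log2 difference was 0.65 (two-sided exact permutation p = 0.3, adjusted 0.9). As a share of all family reads, miR-378a-3p took 80.7% to 85.6% in CRC mice and 82.1% to 85.0% in healthy mice, and miR-378c 8.64% to 13.6% in CRC mice and 10.7% to 11.9% in healthy mice. For all 5 shares the groups overlapped (exact permutation p from 0.3 to 0.9, all adjusted to 0.9, with 0.1 the smallest that 3 mice against 3 allow).

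**Figure D4:**
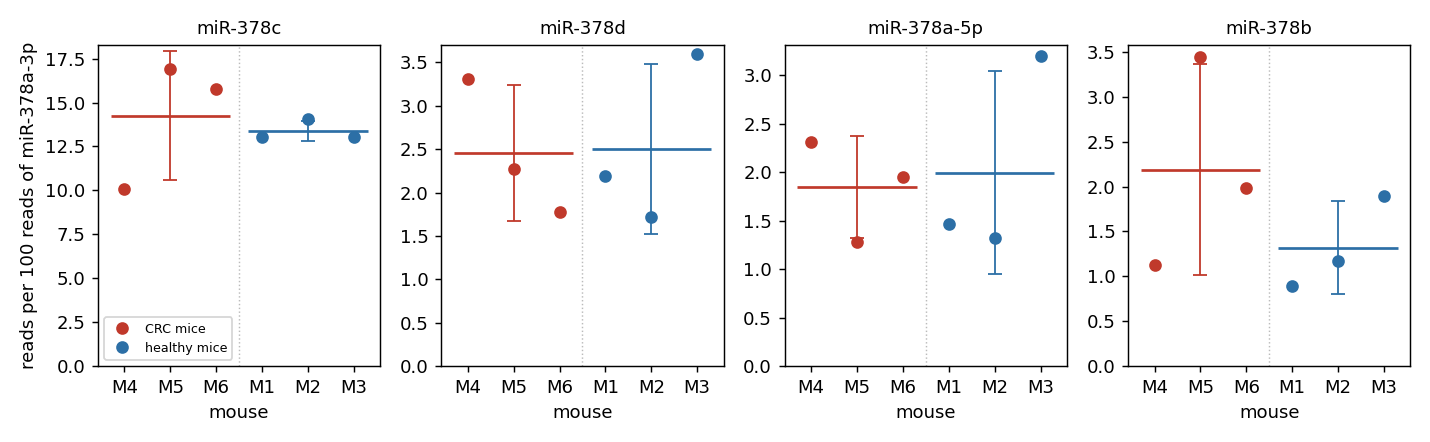
Reads of miR-378c, miR-378d, miR-378a-5p and miR-378b per 100 reads of miR-378a-3p in the same library (vertical axes from 0, each panel on its own scale); CRC mice are red, healthy mice blue, lines group means and bars SD (n = 3). miR-378c stays between 10.1 and 16.9 reads, M3 and M4 lead for miR-378d and miR-378a-5p, and M5 leads for miR-378b at 3.45 reads.

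The miRNAs whose levels followed miR-378a-3p most closely over the 6 mice were sought among 278 others with a mean of at least 50 CPM, by Pearson's r of log2 CPM. The highest was miR-200b-5p (r = 0.998), the passenger strand of a miRNA that holds epithelial cells in their state. After it came miR-194-2-3p (0.995), from an enterocyte cluster, miR-200a-5p (0.988), miR-30a-3p (0.985) and miR-320-3p (0.977). The others of the 10 were miR-7b-5p (0.976), miR-181b-5p (0.975), miR-29c-5p (0.975), miR-139-5p (0.967) and miR-467a-5p (0.966). These values are a description: the 6 points share their libraries and scaling factors, and 58 of the 278 reached 0.9. They do not single out epithelium. Among its listed markers r ran from -0.363 (miR-200c-3p) to 0.956 (miR-200a-3p), with 0.538 for the guide strand miR-200b-3p. Among the compared miRNAs listed for smooth muscle it ran from 0.630 (miR-133a-3p) to 0.959 (miR-1a-3p), with 0.944 for miR-143-3p. The lowest r of all 278 was that of miR-451a, a red blood cell marker, at -0.969, and miR-144-3p of the same list had -0.948. Within the family the same measure gave 0.929 for miR-378c, 0.826 for miR-378d, 0.786 for miR-378a-5p and 0.062 for miR-378b. The family's closest pair after miR-378a-3p and miR-378c was miR-378a-5p with miR-378d, at 0.916.

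The match with miR-200b-5p can be read without any scaling. For each read of miR-200b-5p there were 17.7 reads of miR-378a-3p in M4, 18.9 in M5 and 19.4 in M6 among CRC mice, against 19.1 in M1, 19.2 in M2 and 18.6 in M3 among healthy mice. The ratio ranged over 1.09-fold while miR-378a-3p itself ranged over 3.52-fold on the TMM scale. By total reads its range was narrower, from 3392 CPM in M5 to 5545 CPM in M1. Since miR-200b-5p was picked for its likeness, this ratio is not tested. The guide strand miR-200b-3p had a ratio that varied more, with 0.359 reads of miR-378a-3p per read in M4, 0.223 in M5 and 0.229 in M6 among CRC mice, against 0.614 in M1, 0.527 in M2 and 0.309 in M3 among healthy mice.

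**Figure D5:**
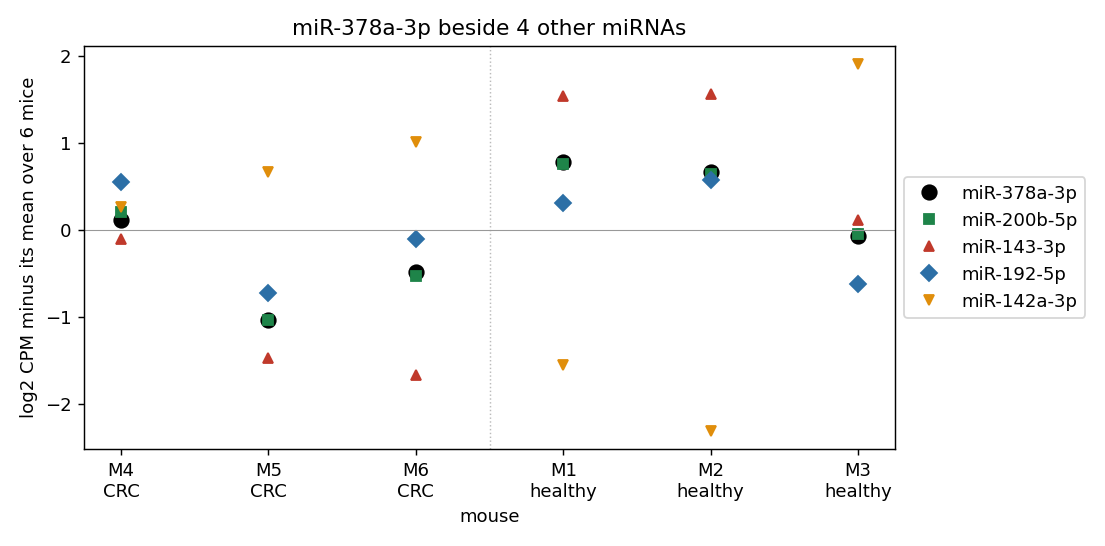
Log2 CPM of 5 miRNAs minus each one's mean over the 6 mice (vertical axis), by mouse with CRC mice on the left and healthy mice on the right. miR-200b-5p lies close to miR-378a-3p in each mouse, smooth muscle miR-143-3p has a wider range, enterocyte miR-192-5p lies above it in the 3 CRC mice and below it in the 3 healthy mice, and white blood cell miR-142a-3p is high in M3, M5 and M6 and low in M1 and M2.

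Markers of the cell types in the tissue also differed between mice. The 7 miRNAs listed for smooth muscle summed to 44628 to 218759 CPM in CRC mice and 191111 to 824552 CPM in healthy mice. They were both arms of miR-143 and miR-145a, and the muscle miRNAs miR-1a-3p, miR-133a-3p and miR-133b-3p. These TMM-scaled sums are not shares of the reads, since the TMM factors were 0.720 in M1 and 0.582 in M2. As for miR-206-3p of skeletal muscle, miR-133a-3p and miR-133b-3p were highest in M3, at 1019 and 132 CPM. miR-1a-3p was highest in M2, at 3459 CPM. Of these 7, 0 passed over all miRNAs and 7 had an unadjusted p under 0.05 (23.2% of all tested miRNAs), while DESeq2 called 4 (12.6% of all) and limma-voom 0. Their median log2 fold change was -1.84 (-1.20 with total reads), against -0.03 (0.62 with total reads) over all tested miRNAs. Without M3 and M4 that median was -3.34, against 0.12 over all miRNAs tested in that fit. In this list miR-143-3p averaged 34236 ± 22078 CPM in CRC mice and 147986 ± 68068 CPM in healthy mice (SD, n = 3 each), a log2 difference of -2.11 with SE 0.54. The part of smooth muscle in the miR-378 values was not tested. Per read of miR-143-3p, miR-378a-3p had 0.0814 reads in M4, 0.0950 in M5 and 0.160 in M6 among CRC mice, against 0.0414 in M1, 0.0378 in M2 and 0.0617 in M3 among healthy mice. Every CRC mouse was thus above every healthy mouse, as were 51.7% of tested miRNAs measured per read of miR-143-3p. Per read of miR-145a-5p, the most abundant of the list, the groups overlapped. That ratio was 0.0310 in M4, 0.0998 in M5 and 0.135 in M6, against 0.0200 in M1, 0.0113 in M2 and 0.0362 in M3.

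Intestinal epithelium was present in all libraries, and its 9 markers summed to 88337 to 166420 CPM in CRC mice and 112500 to 219934 CPM in healthy mice. None of the 9 passed by edgeR (2.28% of all tested miRNAs), DESeq2 (12.6% of all) or limma-voom (0 of all). At an unadjusted edgeR p under 0.05 there were 0 of 9 (23.2% of all). The median log2 fold change was -0.49 (0.098 with total reads), against -0.03 (0.62 with total reads) over all tested miRNAs. Without M3 and M4 it was -1.10, against 0.12 over all miRNAs tested in that fit. Per read of the enterocyte marker miR-192-5p, miR-378a-3p had 0.0759 reads in M4, 0.0825 in M5 and 0.0788 in M6 among CRC mice, against 0.142 in M1, 0.109 in M2 and 0.151 in M3 among healthy mice. Here every CRC mouse was below every healthy mouse, as were 13.6% of tested miRNAs measured in this way. M4 was no exception in this ratio, which was chosen after values had been seen. Per read of miR-200a-3p or miR-200b-3p, also in this list, the groups overlapped. For miR-200a-3p the ratio was 0.133 in M4, 0.0788 in M5 and 0.101 in M6 among CRC mice. In healthy mice it was 0.132 in M1, 0.121 in M2 and 0.117 in M3. The separation was therefore not shared by all markers of the list.

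The 6 white blood cell markers summed to 7432 to 8813 CPM in CRC mice and 3764 to 15927 CPM in healthy mice, with M3 the highest. Their median log2 fold change was 0.018 (0.59 with total reads, -0.15 without M3 and M4). The 4 red blood cell markers summed to 486 to 1892 CPM in CRC mice and 294 to 576 CPM in healthy mice, and 4 of 4 had positive log2 fold changes. The 4 markers of striated muscle, where miR-378a is abundant, summed to 16.4 to 137 CPM in CRC mice and 4.84 to 141 CPM in healthy mice. The miR-1a and miR-133 entries were counted in the smooth muscle list and not here. miR-208a-3p and miR-208b-3p averaged 0.390 and 0.283 CPM in CRC mice and 0.374 and 0.187 CPM in healthy mice, against 0.330 to 0.637 CPM allowed by a count of 0. miR-206-3p, of skeletal muscle, had 136 CPM in M4 and 138 CPM in M3, and made up nearly all of the sum in those mice. The 5 brown fat markers summed to 915 to 1879 CPM in CRC mice and 1753 to 2499 CPM in healthy mice. Their median log2 fold change was -0.53, but its sign was not stable. It was 0.32 with total reads, 0.12 with limma-voom, 0.62 without M3 and 0.39 without M3 and M4. Among them miR-365-3p had 590 CPM in M3, against 52.2 in M1 and 46.1 in M2. Of these markers 17 were tested and 0 passed at an adjusted p of 0.05 by edgeR; 2 had an unadjusted p under 0.05 (23.2% of all tested miRNAs), DESeq2 called 1 (12.6% of all) and limma-voom 0. Their part in the miR-378 values was not tested.

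Other miRNAs known for acting on mitochondria or fuel use were spread to both sides of 0. Of 26 listed, 25 were tested, and 0 passed over all miRNAs, with 5 at an unadjusted p under 0.05, where 23.2% of all tested miRNAs had one. DESeq2 called 1 (12.6% of all) and limma-voom 0. Their log2 fold changes were negative for 14 and positive for 11, with a median of -0.04 (0.54 with total reads). Among the most abundant, miR-23b-3p, which represses PGC-1α with its homolog miR-23a-3p, was at -0.51 (SE 0.45) on the log2 scale, and miR-23a-3p at -0.78 (SE 0.41). miR-30d-5p had -0.01 (SE 0.32) and miR-103-3p, a regulator of insulin signalling, -0.50 (SE 0.43). The hypoxia-induced miR-210-3p, which represses the iron-sulfur cluster protein Iscu, averaged 789 ± 144 CPM in CRC mice and 759 ± 52.4 CPM in healthy mice (SD, n = 3 each). The median of the list was -0.49 without M3 and M4, where edgeR called 14 of its 25 tested members and 53.2% of all tested miRNAs.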

How the data were processed

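Small RNA libraries were made with the Ion Total RNA-Seq kit and sequenced on an Ion Proton, per the labels' protocols. The authors deposited whole-number read counts, not normalized, for 1915 entries; BWA, mm10 and GRCm38 are named without roles per the submitters' processing notes. M1 is 1 column for a mouse with 2 labelled libraries. Mice are separate animals.

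The test was that of edgeR 4.0.16, run under R 4.3.3 (TMM, filterByExpr, robust glmQLFit, glmQLFTest, two-sided), with Benjamini-Hochberg adjustment over 878 tested miRNAs, and the standard error is the log2 fold change divided by the square root of F. All 5 members passed the filter. For the sum of 4 entries, 875 rows were tested. Levels are CPM on TMM-scaled totals, log2 CPM have a prior count of 2, and a count of 0 allows 3 counts. Differences between single mice use 0.5 CPM added. Shares and ratios were compared by exact permutation of mice. Alternatives were other scalings, filters, DESeq2 1.42.0, limma-voom (limma 3.58.1), non-robust fits, left-out mice and blocks. The edgeR script was tested on simulated data.

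Named were all members, the 10 miRNAs most like miR-378a-3p, its neighbours in level and abundant members of each list. Members, lists and tests were chosen with earlier results of these data known. The sequences of the miR-378a arms are not reported here. Sequences are from RefSeq, in which 3 of 5 members were used.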

Additional observations from a re-analysis of the deposited data

How the results depend on the processing

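edgeR called 20 miRNAs, and 0 members of the family and 0 of 57 tested list members. Over all miRNAs the number was 43 of 878 with total reads alone and 64 of 1914 with no filter. A filter at 50 CPM gave 0 of 305, DESeq2 111 of 878 and limma-voom 0 of 878. Without M3 and M4 it was 576 of 1082. Leaving out each mouse gave 0 to 237 calls over all miRNAs, 0 to 1 in the family and 0 to 10 in the lists. Without M3 they were 63 of 1068 and, in the lists, 7 of 57. Without M4 they were 237 of 1188, 1 of 5 in the family (miR-378d) and 10 of 57 in the lists. In the family 4 were called without M3 and M4, and 0 under each setting that kept all 6 mice. In the lists 1 of 57 was called with total reads alone and 2 of 59 with no filter. DESeq2 called 6 of 57, and 37 of 57 were called without M3 and M4. The summed entries had a log2 fold change of -1.67 without M3 and M4, 0.13 with blocks, and -1.18 to -0.64 with each mouse left out. With blocks miR-378a-3p (0.18) and miR-378d (0.060) were positive too; these fits compare M4 with M3 alone, since the other blocks hold 1 group each. miR-378b turned with total reads (0.48) and with the filter at 50 CPM (0.052), and the cause was not tested. Leaving out M3 and M4 keeps the mice farthest apart, so its calls are not support. With each mouse left out, the difference in share of family reads, CRC minus healthy, lay between -2.41 and 0.028 percentage points for miR-378a-3p, -0.398 and 0.357 for miR-378a-5p, 0.199 and 1.11 for miR-378b, -0.410 and 2.09 for miR-378c and -0.443 and 0.386 for miR-378d. Its sign turned without M5 for miR-378a-3p (0.028), miR-378a-5p (0.127), miR-378c (-0.410) and miR-378d (0.057), without M6 for miR-378c (-0.081) and miR-378d (0.244), and without M3 for miR-378a-5p (0.357) and miR-378d (0.386). The log2 arm ratio difference lay between -0.27 and 0.37, and was positive without M5 (0.21) and without M3 (0.37). No paired analysis was possible because the labels give no pairing of mice.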
